A study of Mus musculus with 61 samples.

Results

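The genes described here are 5 genes whose human counterparts carry an expanded CAG repeat, and so a lengthened glutamine tract, in an inherited neurodegenerative disease: Atxn1, Atxn2, Atxn3, Atxn7 and Atn1. They were taken by gene symbol through the RefSeq identifier of the array probes, with the probe of highest mean signal as the measure of each gene, out of 16355 named genes on the array. The genes have 8 probes in all, 2 each for Atxn1, Atxn2 and Atxn3 and 1 each for Atxn7 and Atn1, and each of the 5 main probes was well above background on all 61 arrays. The question was whether the level of each transcript follows the brain areas that its disease affects.

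Atxn1 encodes ataxin-1, a nuclear protein that works in a repressor complex with capicua, and its repeat is expanded in spinocerebellar ataxia type 1. Atxn2 encodes a cytoplasmic RNA-binding protein, Atxn3 a deubiquitinase and Atxn7 a subunit of the SAGA chromatin complex, and they are the genes of spinocerebellar ataxia types 2, 3 and 7. Atn1 encodes atrophin-1, a transcriptional co-repressor, and is the gene of dentatorubral-pallidoluysian atrophy. All are transcribed widely in the body and in the brain, while the diseases affect selected neurons: Purkinje cells of the cerebellum in the ataxias of Atxn1, Atxn2 and Atxn7, the pons, cerebellar nuclei and substantia nigra in that of Atxn3, and the dentate nucleus of the cerebellum and the pallidum in that of Atn1. The animals here were wild-type mice, whose own proteins carry no expanded tract.

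The brains of 6 male C57BL/6J mice aged 8 weeks were cut into slices of 1 mm, and the RNA of each slice, called a fraction, was hybridized to its own array. Mice S and So gave 9 and 10 sagittal fractions from left to right, C and Co gave 13 and 16 coronal fractions from posterior to anterior, and H and Ho gave 6 and 7 horizontal fractions from dorsal to ventral, with So, Co and Ho cut slightly obliquely. No treatment or mutation separates the mice, so that the comparisons are between positions in the brain. The study paired 56 of the 61 fractions into 28 pairs of corresponding position from both mice of a plane, on the likeness of the same arrays, and these pairs served as replicates. Levels are given as log2 of the background-subtracted intensity minus the 75th percentile of the array, so that a level of 0 equals that percentile, and they were compared only within a probe.

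On each array between 57.9% and 73.1% of the probes gave a signal well above background, and no spot was saturated. The arrays lay on 16 slides. In mouse C the 4 most posterior fractions shared 1 slide, and in mouse Co the fractions Co1 to Co4 shared another, so that position and slide run largely together there, and the slide's part was examined only by entering it as a random block. C13, the most anterior fraction of mouse C, was scanned with the horizontal series and not with C1 to C12. In bulk RNA, fewer cells of a type and less RNA per cell cannot be told apart.

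Atxn1 was the member with the clearest pattern, a level about 2-fold lower at the posterior end of the brain, where the cerebellum, pons and medulla lie. In mouse C, the levels of the 4 posterior fractions were −1.62, −0.97, −0.97 and −0.99 on the log2 scale. The 9 anterior fractions of the same mouse ranged from −0.38 to 0.35 with a median of 0.18. In mouse Co, the paired posterior fractions Co2 to Co5 had −1.33, −0.98, −1.10 and −0.99, and the 9 anterior ones ranged from −0.88 to 0.04 with a median of −0.36. The paired posterior and anterior fractions thus did not overlap in either mouse. How many of all detected probes show such a gap was not determined, here or for the probes below. The unpaired Co16 at the anterior tip had −1.14, however, below 3 of the 4 posterior levels of mouse Co. In both mice, the highest level was reached in the tenth fraction, C10 and Co10, and the lowest of all 61 fractions, −1.98, was in Co1 at the posterior tip, which has no partner.

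The mean of pairs 1 to 4 minus that of pairs 5 to 13, called the caudal minus rostral difference, was −0.99 ± 0.13 (log2, SE) for Atxn1, with an adjusted p of 1.2e-07 by limma's moderated test with Benjamini-Hochberg adjustment over all detected probes. On the linear scale the rostral pairs were 1.98-fold higher, with a 95% interval of 1.65 to 2.38. In this comparison 20.6% of all detected probes were called lower caudally and 31.2% higher, and with scaling to the array median 26.8% were lower and 21.9% higher. The other Atxn1 probe gave −0.78 ± 0.08 (adjusted p = 5.9e-10, limma). Its groups did not overlap in mouse Co, while in mouse C the highest posterior level, −2.58, lay above the lowest anterior one, −2.78 in C12. With the slide as a random block the difference was −0.95 (adjusted p = 3.9e-06, limma). Within 1 slide of mouse Co, Co5 had −0.99 beside −0.80 in Co6, −0.47 in Co7 and −0.36 in Co8. The difference was −1.22 within mouse C and −0.75 within mouse Co, and the gap between the mice did not pass the test (0.47 ± 0.15, adjusted p = 0.065, limma's interaction term), which 7.48% of all detected probes did. With the other probe both mice were close to each other, at −0.75 and −0.81.

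**Figure D1:**
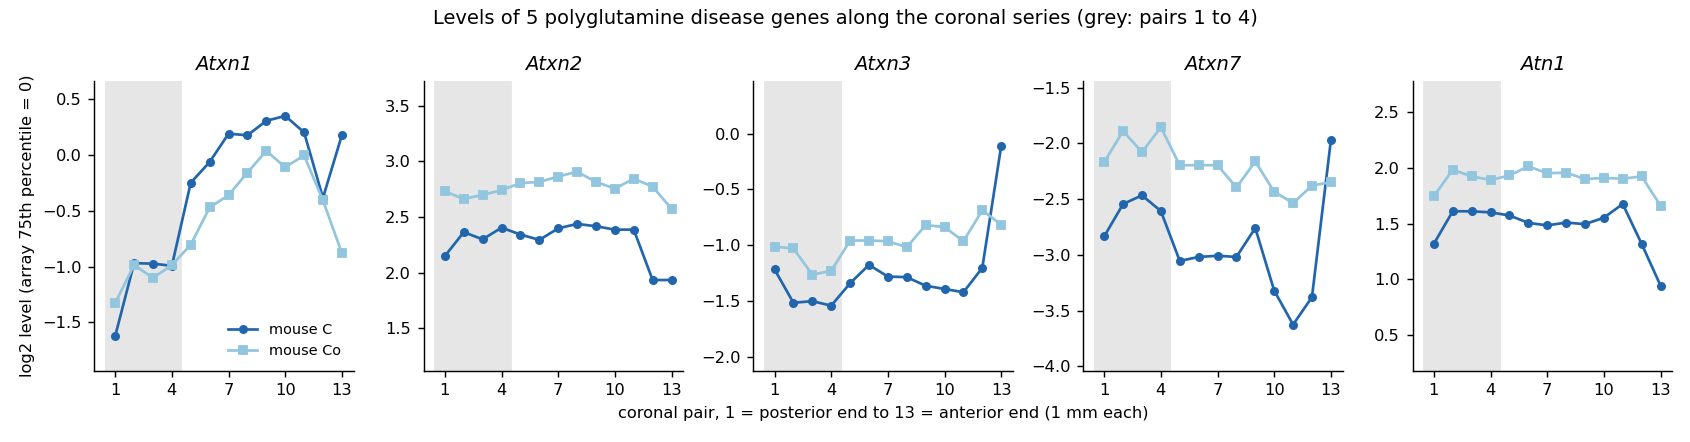
Log2 level of each of the 5 genes (main probe) in the 13 coronal pairs, from the posterior end at 1 to the anterior end at 13, with 1 line per mouse and the same span on each vertical axis. Among these pairs, the 4 grey posterior ones hold the lowest Atxn1 levels of each mouse, at −0.97 or below. The unpaired Co1 and Co16, at −1.98 and −1.14 for Atxn1, are not shown. Atxn2 and Atn1 run nearly level, and mouse C departs from mouse Co at pair 13.

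Along the dorsal to ventral axis, Atxn1 was highest at the top of the brain in both mice. Mouse H had 1.15, 0.68, 0.56, 0.48, 0.10 and 0.53 from H1 to H6. Mouse Ho had 1.04, 0.79, 0.54, 0.36, 0.23, 0.05 and 0.17 from Ho1 to Ho7. The dorsal fractions were the high ones in each series, and only the ventral end of H and Ho turned up again. The ventral minus dorsal difference over pairs of 3 and 3 was −0.42 (adjusted p = 0.12, limma), and with the mouse as a block it passed the test (adjusted p = 0.0075, limma). In this comparison 5.16% of all detected probes were called lower ventrally and 7.4% higher, and 11.3% were lower with the block. The difference between H and Ho in this contrast was 0.01 ± 0.21 for Atxn1, and that interaction passed the test in 0.14% of all detected probes.

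In the sagittal series, Atxn1 dipped near the midline in mouse S, while in mouse So it fell there and stayed low to the right edge. The levels of mouse S had a lowest value of 0.32 in S6, a median of 0.66 and a highest value of 0.88 in S9 at the right edge. Those of mouse So had a lowest value of −0.14 in So10, a median of 0.13 and a highest value of 0.69 in So2, and the next lowest, −0.08, was in So6. As S9 was paired with So10, S6 and So6 need not be the same position. Mouse So had 0.02, 0.12, 0.14 and −0.14 from So7 to So10. A dip with recovery on the right was thus seen in S alone, and the low right edge in So alone. The left edge of So, at 0.24 in So1, was also below So2. The medial minus lateral difference was −0.33 (adjusted p = 0.18, limma) with the main probe and −0.33 (adjusted p = 0.018, limma) with the other one. It passed the test with the mouse as a block (adjusted p = 0.019, limma), without So10, where it was −0.46 (adjusted p = 0.037, limma), and with scaling to the array median, where it was −0.44 (adjusted p = 0.039, limma). Without So10 the pair rests on S9 alone, so the offset between So and S enters the −0.46 and cannot be told apart from position. Of all detected probes, 9.09% were called lower medially and 10.5% higher, and 15.6% were lower with the block. The gap between So and S differed by 0.03 ± 0.18 for Atxn1 between the medial pairs and all other sagittal pairs. That interaction passed in 0.0109% of all detected probes.

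Atxn3 had a smaller difference of the same sign. In mouse C the posterior levels were −1.22, −1.52, −1.50 and −1.54, and the 9 anterior ones ranged from −1.42 to −0.11 with a median of −1.29. In mouse Co the posterior levels were −1.01, −1.03, −1.27 and −1.23, and the anterior ones ranged from −1.02 to −0.69 with a median of −0.96. In each mouse 3 of the 4 posterior fractions lay below every anterior one. The highest value, −0.11 in C13, stands alone, since C12 had −1.20.

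The caudal minus rostral difference of Atxn3 was −0.26 ± 0.10 (log2, SE; adjusted p = 0.025, limma), and the other probe gave −0.41 ± 0.11 (adjusted p = 0.0015, limma). With the other probe, all 4 posterior fractions lay below every anterior one in both mice, a pattern whose share among all detected probes was not determined. The call of the main probe was lost without C1, C2, C3 or C4 (adjusted p from 0.068 to 0.109, limma). Each of these fits leaves a posterior pair to mouse Co, the higher mouse in this probe, so the offset between the mice enters. The part of that offset in the lost call was not tested. Without C13 the difference was −0.22 (adjusted p = 0.045, limma), and without the 2 most anterior pairs it was −0.16 (adjusted p = 0.13, limma). In the horizontal series Atxn3 was nearly level, between −1.06 and −0.88 over all H and Ho fractions.

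Atxn2 gave different answers with its 2 probes. The main probe was nearly flat along the coronal axis: in mouse C the posterior levels were 2.15, 2.36, 2.30 and 2.40, within the anterior range of 1.93 to 2.44. In mouse Co they were 2.73, 2.66, 2.70 and 2.74, within the anterior range of 2.57 to 2.91. Its caudal minus rostral difference was −0.03 ± 0.11 (log2, SE; adjusted p = 0.82, limma), with a 95% interval from −0.25 to 0.19. The main probe was lower at several ends of the series, with 2.17 in H6 and 2.15 in Ho7 at the bottom of the brain and 2.04 in So1 and 2.03 in So10 at its sides, whereas no level of mouse S was below 2.33. The other probe was higher caudally by 0.44 ± 0.08 (adjusted p = 4.1e-05, limma). In mouse Co its 4 posterior levels, from −0.23 to −0.15, lay above every anterior one, the highest of which was −0.33. In mouse C they ran from −0.06 to 0.23 and overlapped with the anterior ones, which reached 0.19 in C5. Both probes carry the name through the same gene, and the part of the transcript that each one reads was not analysed here, so no direction is given for Atxn2.

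Atxn7 had the largest positive caudal minus rostral difference of the 5 main probes, and whether it passed the test depended on the fit. In mouse C the posterior levels were −2.83, −2.54, −2.47 and −2.61, and the 9 anterior ones ranged from −3.63 to −1.97 with a median of −3.02. In mouse Co the posterior levels were −2.17, −1.89, −2.08 and −1.85, and the anterior ones ranged from −2.54 to −2.16 with a median of −2.35. The highest anterior value of mouse C was again in C13, and the lowest, in C11, lay only 2 fractions behind it.

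The caudal minus rostral difference of Atxn7 was 0.36 ± 0.17 (log2, SE; adjusted p = 0.070, limma) without the block and passed the test with the mouse as a block (adjusted p = 0.00045, limma), where 38.4% of all detected probes were called higher. It was 0.40 within mouse C and 0.32 within mouse Co. It also passed without any one of C1, C2, C4, Co6, Co7, Co8, Co11, Co12 or Co14 (adjusted p from 0.029 to 0.041, limma) and without the 2 most anterior pairs, at 0.40 (adjusted p = 0.045, limma). Under scaling to the array median it was 0.24 (adjusted p = 0.23, limma). In the sagittal series the highest Atxn7 level was −1.68 in S6, while the levels of mouse So ran from −2.79 to −2.36 without such a peak. That scaling bears on all members, because the median of all detected probes was 0.13 higher caudally under the 75th percentile and 0.01 higher under the median.

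Atn1 was level over most of the coronal axis and lower at the tips. In mouse C the posterior levels were 1.32, 1.61, 1.61 and 1.60, and the anterior ones ranged from 0.95 in C13 to 1.68 in C11. In mouse Co the posterior levels were 1.75, 1.98, 1.92 and 1.89, and the anterior ones ranged from 1.66 to 2.02, with a lower level of 1.31 in the unpaired Co1. The caudal minus rostral difference was 0.03 ± 0.10 (log2, SE; adjusted p = 0.81, limma), with a 95% interval from −0.18 to 0.24, and it was −0.09 under scaling to the array median (adjusted p = 0.52, limma). From dorsal to ventral, mouse H had 1.41, 1.23, 1.20, 1.13, 1.11 and 1.11, and mouse Ho had 1.81 in Ho1 and between 1.28 and 1.53 in the rest. The most dorsal fraction was the highest in both, as for Atxn1. The ventral minus dorsal difference, which does not include Ho1, was −0.12 (adjusted p = 0.75, limma), and the medial minus lateral difference was −0.14 (adjusted p = 0.59, limma), with an adjusted p of 0.013 with the mouse as a block.

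**Figure D2:**
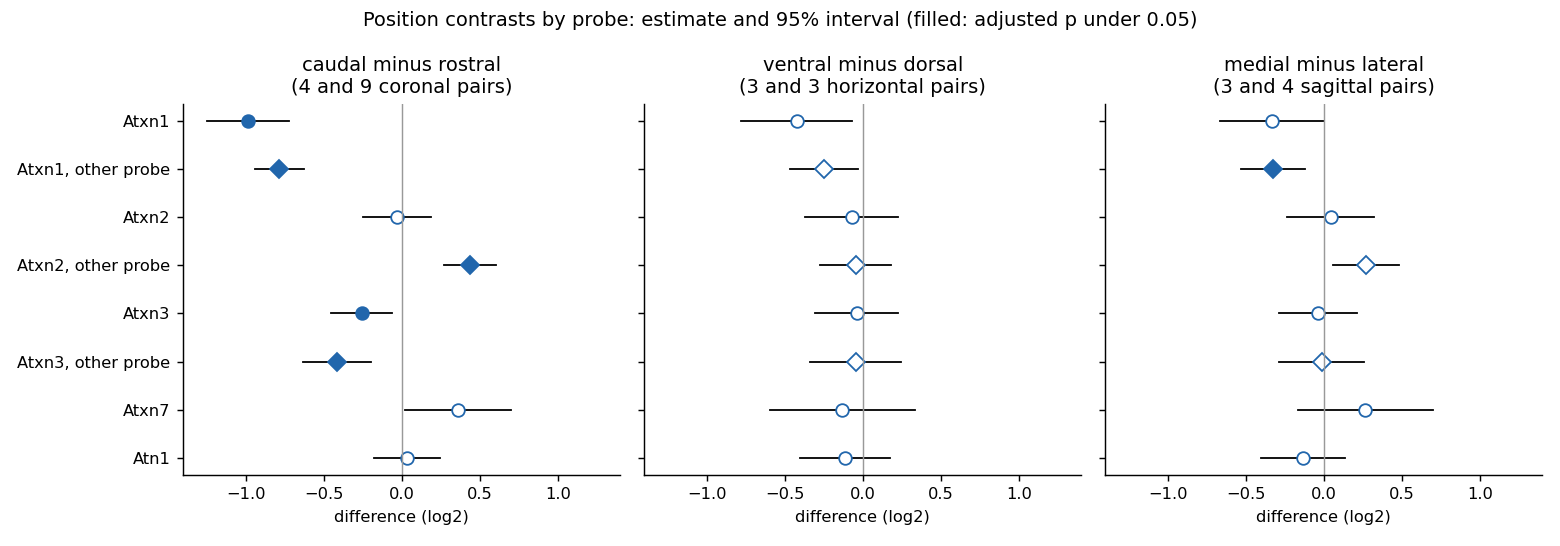
Difference in log2 level (horizontal axes) for the 8 probes of the 5 genes in the caudal minus rostral, ventral minus dorsal and medial minus lateral contrasts, with 95% intervals from limma; circles are main probes, diamonds the other probes and filled symbols passed an adjusted p of 0.05. Caudally both Atxn1 probes (−0.99 and −0.78) and both Atxn3 probes (−0.26 and −0.41) are lower, whereas the Atxn2 probes part at −0.03 and 0.44.

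**Figure D3:**
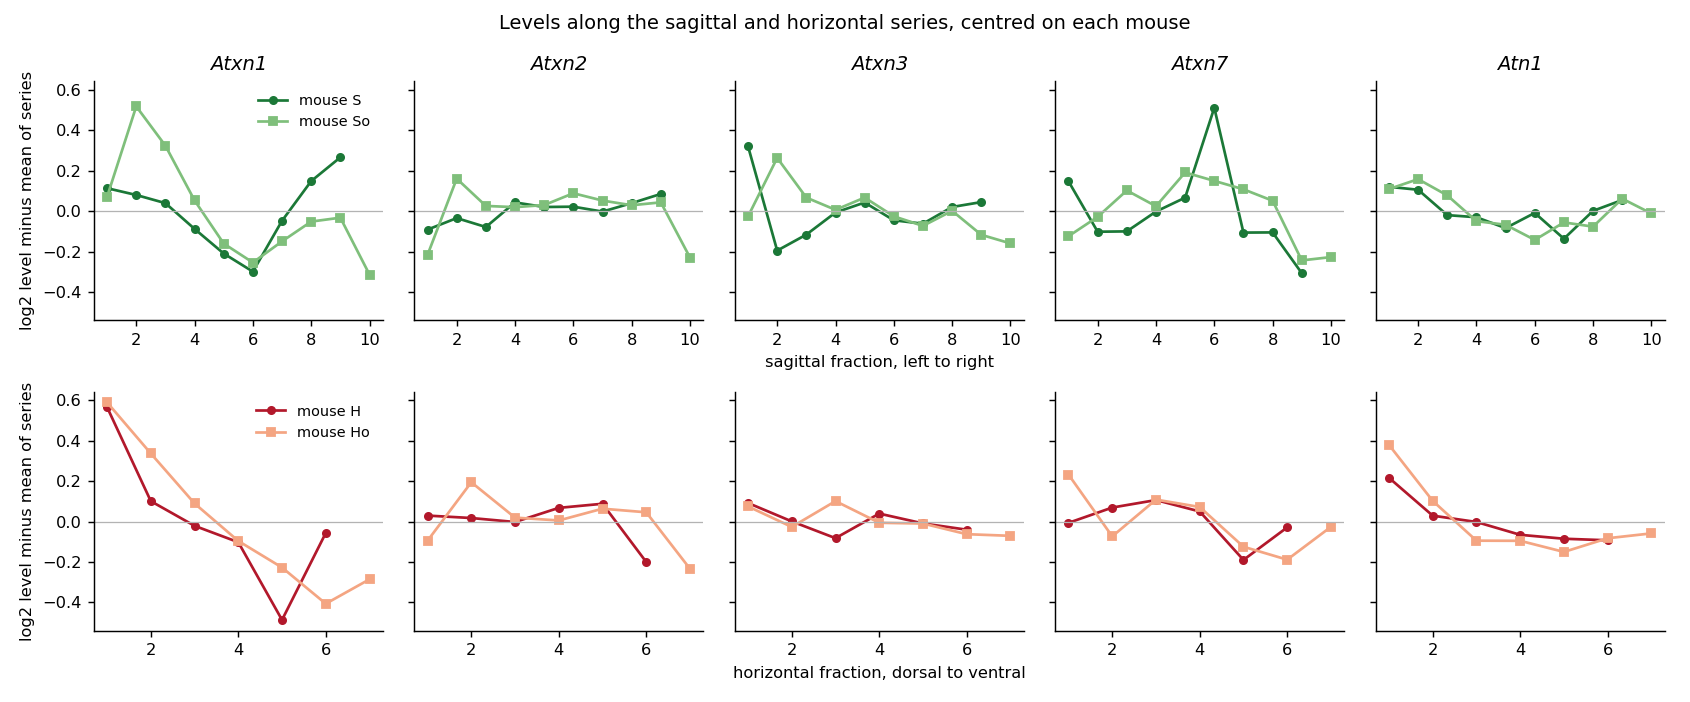
Log2 level minus the mean of the series for the 5 main probes along the sagittal series (upper row, mice S and So) and the horizontal series (lower row, mice H and Ho). Atxn1 and Atn1 are highest in the first, most dorsal, horizontal fraction of both mice. In the sagittal series Atxn1 is lowest in S6 for mouse S and in So10 for mouse So.

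Over all 28 pairs, limma's moderated F test found variation between pairs in 1 of the 5 genes (adjusted p below 0.05) and in 61.2% of all detected probes. The gene was Atxn1, with F = 7.49 (adjusted p = 1.7e-06, limma), and its other probe gave F = 10.5. The F of Atxn2, Atxn3, Atxn7 and Atn1 lay between 0.51 and 1.39, although the other Atxn2 probe passed with F = 3.15 (adjusted p = 0.0035, limma). With the mouse as a block all 5 passed (adjusted p from 1.6e-08 to 0.029, limma), and so did 81% of all detected probes.

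The mice of a plane differed in most of these genes. In the coronal pairs, mouse Co was higher than mouse C by 0.68 in Atxn7 (adjusted p = 2.3e-08), by 0.48 in Atxn2 (4.5e-11), by 0.42 in Atn1 (4.8e-12) and by 0.29 in Atxn3 (0.00051), and lower in Atxn1 by a difference of −0.29 (0.0032), all from limma. The other probe of Atxn1 gave −0.25 (adjusted p = 9.1e-05, limma), the direction of its main probe. That of Atxn2 gave −0.28 (adjusted p = 9.1e-05, limma) and that of Atxn3 gave −0.46 (adjusted p = 1.1e-09, limma), each opposite to its main probe. Of all detected probes, 26.8% were called higher in Co and 26.6% lower. Mouse, cutting angle, slide and scan day cannot be told apart here, as Co and C were scanned on different days. Between So and S the differences of Atxn1 (−0.45), Atxn7 (−0.34), Atn1 (−0.26) and Atxn2 (−0.13) passed the test (adjusted p from 5.3e-06 to 0.033, limma), where 18.2% of all detected probes were called lower and 11.9% higher. Between Ho and H, which were scanned together, that of Atn1 (0.17, adjusted p = 0.027, limma) was the one that passed. In this last comparison 3.77% of all detected probes were called higher and 1.58% lower.

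Levels in areas were then compared through genes that mark them. For every mouse, the level at the peak of an area's marker was set against the level at the peak of Myl4, which marks the motor cortex. The markers were chosen as Pcp2 for Purkinje cells, Agtr2 for the cerebellar nuclei and Cdh23 for the pons. Slc6a3 was chosen for the dopaminergic cells of the midbrain, Ppp1r1b for the caudate putamen and Spink8 for Ammon's horn. Agtr2 peaked in C1, Co2, H5 and Ho6, more posterior and more ventral than Pcp2 in C3, Co5, H2 and Ho3. Ppp1r1b peaked in H6 and Ho6, at or next to the base of the brain. The fractions at Agtr2 and Ppp1r1b may therefore lie largely outside the named areas. Myl4 itself peaked in S9 in mouse S, the outermost right fraction, so the reference may also lie largely outside the motor cortex there. A fraction of 1 mm holds much more than its marker's cells, and markers could share a fraction: in mouse Ho, Agtr2, Cdh23, Slc6a3 and Ppp1r1b all peaked in Ho6. Pcp2 peaked with Myl4 in mouse H, and Spink8 did so in 3 mice, where the difference is 0. Agtr2 was well above background on 49 of 61 arrays and Cdh23 on 53.

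Atxn1 was lower than in the Myl4 fraction in 6 of 6 mice for 3 of the markers. In mice S and So, the Myl4 peaks S9 and So2 also held the highest Atxn1 level of the series. Any other fraction was therefore lower in these mice, whatever the marker. The mean difference was −0.90 ± 0.56 (log2, SD, n = 6) at Agtr2, −0.60 ± 0.13 at Cdh23 and −0.45 ± 0.22 at Slc6a3. Each had p = 0.031 by the exact two-sided sign-flip permutation test, the smallest that 6 mice can give, and an adjusted p of 0.208 over the 30 comparisons. At Pcp2 the mean was −0.57 ± 0.49, lower in the 5 mice with separate fractions (p = 0.062, exact permutation test). The Pcp2 difference was −1.18 in mouse C and −0.99 in mouse Co but between −0.83 and −0.19 in S, So and Ho. At Ppp1r1b it was −0.27 ± 0.32 and at Spink8 −0.09 ± 0.15, with 1 mouse going the other way at Ppp1r1b. Of all detected probes, 12.5% were lower in every mouse at Agtr2, 12.1% at Cdh23, 11.1% at Slc6a3, 12.2% in the 5 mice at Pcp2, 8.21% at Ppp1r1b and 24.2% in the 3 mice with separate fractions at Spink8. The shares that were higher in every mouse were 14.1%, 13.4%, 12.1%, 15.6%, 7.35% and 20.8% in the same order. Against the mean of all fractions of the mouse in place of the Myl4 fraction, Atxn1 remained lower in 6 of 6 mice at Agtr2 alone, with a mean of −0.50. The mean was −0.20 at Cdh23 and −0.052 at Slc6a3, with 4 of 6 mice lower at each, and −0.17 at Pcp2, with 3 lower and 3 higher. It was 0.13 at Ppp1r1b and 0.31 at Spink8, and 14 of the 30 comparisons changed sign.

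For the other 4 genes the mean differences at the markers lay between −0.19 and 0.34. At Pcp2 the means were −0.15 ± 0.13 for Atxn2, −0.15 ± 0.20 for Atxn3, 0.34 ± 0.50 for Atxn7 and −0.07 ± 0.10 for Atn1 (log2, SD, n = 6). Mouse C, at 1.16, carried much of the Atxn7 value, which was 0.17 without it. The Atxn3 value was −0.09 and the Atxn2 value −0.10 without mouse So. Atn1 was lower at Agtr2 in 6 of 6 mice by a mean of −0.19 ± 0.10 (p = 0.031 by the exact permutation test, adjusted p = 0.208). Atxn3 differed by −0.06 ± 0.13 at Cdh23 and by −0.02 ± 0.19 at Slc6a3, with 4 and 3 mice of 6 lower. These values depended on the scaling: with the array median they were −0.19 (6 of 6 mice lower) and −0.15 (4 of 6), and −0.20 and −0.15 in the authors' table. Under the array median that of Atn1 at Agtr2 was −0.41, and it was −0.09 against the mean of all fractions, lower in 6 of 6 mice in both. None of the 30 comparisons passed an adjusted p of 0.05 (exact permutation test), and 4 had an unadjusted p under 0.05. At least 19 would have to reach the smallest p for any to pass, so that this design was weak. In none of the 5 genes was the level higher in all mice at Agtr2, Cdh23 or Slc6a3 than in the Myl4 fraction. At Pcp2 mouse H could not differ, and no gene was higher in all 5 mice with separate fractions. Of all detected probes, 14.1%, 13.4%, 12.1% and 15.6% were so at Agtr2, Cdh23, Slc6a3 and Pcp2. In mouse So, the Myl4 fraction So2 held the highest level of Atxn1, Atxn2, Atxn3 and Atn1, so none of these could be higher elsewhere. Finding none among 5 genes therefore says little.

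**Figure D4:**
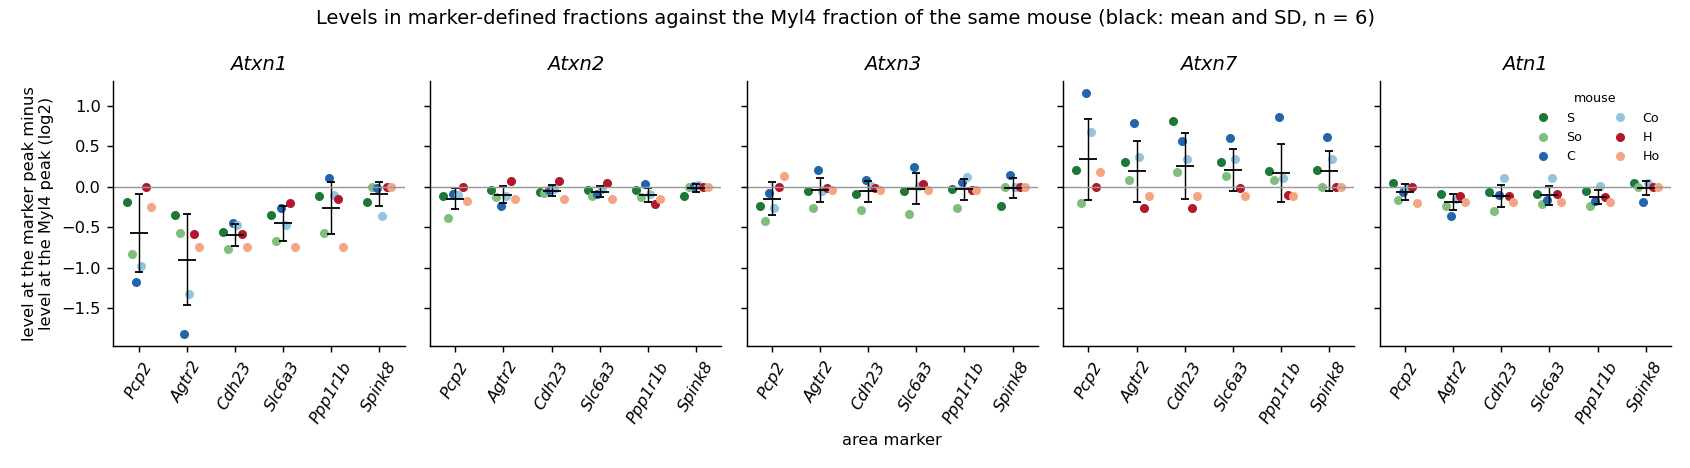
Log2 level in the fraction where each area marker peaks minus the level in the Myl4 peak fraction of the same mouse, for the 5 genes (panels) and 6 markers (horizontal axis), with 1 point per mouse and the mean and SD in black (n = 6). Atxn1 lies below 0 in all 6 mice at Agtr2, Cdh23 and Slc6a3, and Atn1 does so at Agtr2. In S and So the Myl4 fraction is itself the highest one for Atxn1. The widest SD, 0.56, is that of Atxn1 at Agtr2.

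Htt, Cacna1a and Tbp are further genes of polyglutamine diseases. Cacna1a, which encodes the pore of the P/Q-type calcium channel of Purkinje cells, was 1.57-fold higher caudally (log2 difference 0.65 ± 0.19, adjusted p = 0.0044, limma), and its other probe gave 0.80. Its levels in mouse C were 0.22, 0.18 and 0.01 in C2 to C4 but −1.35 in C1, and the anterior ones were −0.42 or below. Htt, the huntingtin gene, had −0.13 (adjusted p = 0.15, limma) and Tbp, the TATA-binding protein, −0.01 (0.88). Htt varied over the pairs (F = 2.17, adjusted p = 0.036, limma). Of these 3 genes, 1 was therefore higher and 0 were lower in the caudal pairs, beside 0 and 2 of the 5 genes above. Of all detected probes, 31.2% were called higher and 20.6% lower.

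Among the relatives of the 5 proteins, 5 of 9 paralogs were measured, of which 1 was higher and 2 were lower caudally. For this list and the next, the shares of all detected probes were 31.2% higher and 20.6% lower. With scaling to the array median those shares were 21.9% and 26.8%. Atxn7l2 was lower by a difference of −0.53 (adjusted p = 6.9e-09), Josd1 by −0.26 (0.033), and Josd2 was higher by 0.31 (0.0060, all from limma). Josd1 and Josd2 encode deubiquitinases of the same Josephin type as ataxin-3. Of the binding partners and fellow subunits, 20 of 25 were measured, with 3 higher and 10 lower caudally and a median of −0.11 beside 0.13 over all detected probes. Baiap2, a partner of atrophin-1 at synapses, had −1.60 (adjusted p = 1.5e-19), Kat2b, an acetyltransferase of SAGA-type complexes, had 1.20 (2.3e-10) and Kat2a, its homologue, had −0.46 (0.016, all from limma). Capicua, the partner of ataxin-1, had −0.27 (adjusted p = 0.0040, limma), and it is named here for that role.

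Of 14 genes of other inherited ataxias, 14 were measured, with 5 higher and 4 lower caudally and a median of 0.01. These counts are near the shares of all detected probes, 31.2% higher and 20.6% lower. Pdyn, which encodes prodynorphin, had −2.22 (adjusted p = 5.0e-17), Cacna1g, a T-type calcium channel, had 1.79 (3.4e-17) and Itpr1, an inositol trisphosphate receptor of Purkinje cells, had 1.32 (1.9e-14, all from limma). These 3 were named because their differences were the largest among the called genes of the 14. That they exceeded those of all 5 genes described here follows in part from this choice.

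**Figure D5:**
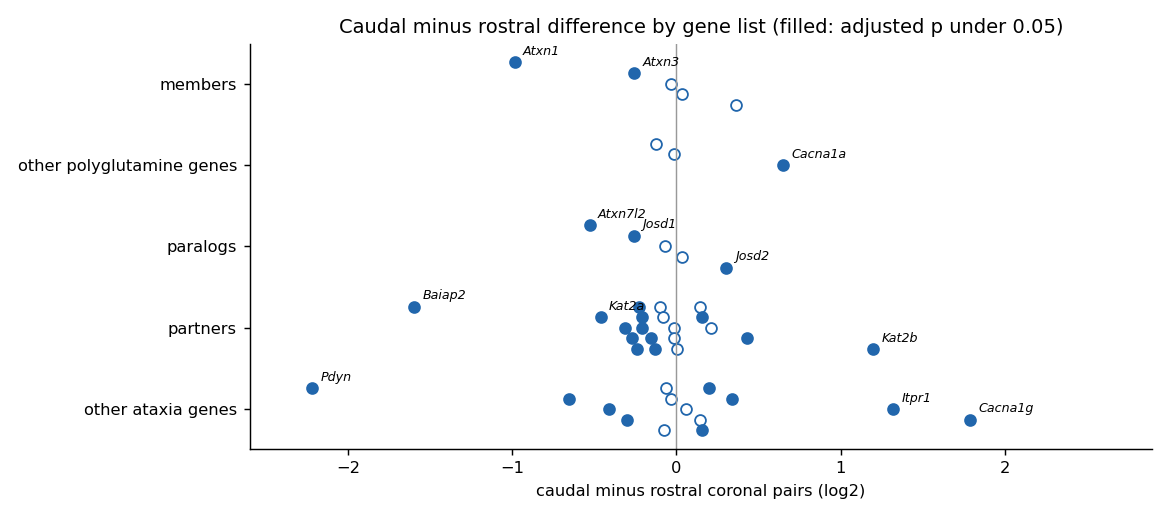
Caudal minus rostral difference in log2 level (horizontal axis) for the measured genes of 5 lists, 1 point per gene and filled where the adjusted p was under 0.05, with the names of up to 3 genes a list that had the largest differences among those called. Of the 5 members Atxn1 (−0.99) and Atxn3 (−0.26) are lower, while the lists of partners and other ataxia genes spread from −2.22 to 1.79.

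Markers of several cell types moved along the same axis. Of 4 Purkinje cell markers 3 were higher caudally, with Pcp2 at 4.66 and Car8 at 4.61, while Pcp4 had −0.05 (adjusted p = 0.64, limma). All 3 markers of cerebellar granule cells, 5 of 5 of oligodendrocytes and 3 of 3 of astrocytes were higher, and 2 of 2 of microglia were lower. Of all detected probes, 31.2% were called higher and 20.6% lower. Of 4 neuronal markers 2 were higher (Snap25 and Stmn2), and Syt1, a synaptic vesicle protein, was lower (−1.65). On the linear scale, where 1 is the 75th percentile, the summed level of the granule cell markers ranged from 26.2 to 125 in the 8 caudal arrays and from 2.22 to 29.1 in the 18 rostral ones. The sums ran from 48.8 to 186 and from 43.5 to 87.6 for Purkinje cell markers, and from 237 to 381 and from 89.8 to 246 for oligodendrocyte markers. For astrocyte markers they were 13.8 to 19.0 and 8.04 to 13.4, for microglia 1.51 to 3.64 and 2.76 to 5.44, and for neurons 86.8 to 111 and 94.2 to 149. Their part in the differences of Atxn1 and Atxn3 was not tested.

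Over the 61 fractions, each centred on the mean of its mouse, Atxn1 had r = 0.88 with Syt1, −0.86 with Aqp4 of astrocytes, −0.78 with Gfap, −0.61 with Gabra6 of granule cells and −0.56 with Pcp2. Other markers of the same cell types had weaker coefficients or the other sign: −0.21 for Stmn2 and 0.16 for Snap25 of neurons, −0.20 for Calb1 and 0.13 for Pcp4 of Purkinje cells, and −0.19 for Aldh1l1 of astrocytes. The oligodendrocyte markers all lay between −0.59 and −0.51. Of the microglia markers, Cx3cr1 had 0.59 and Aif1 0.27. The fractions of a mouse are neighbors that share slides, and these coefficients are given as a description. The 2 Atxn1 probes had r = 0.89 with each other, those of Atxn2 0.51 and those of Atxn3 0.37. Among the main probes of the 5 genes, the highest coefficient was 0.62, between Atxn2 and Atn1, and the lowest was −0.41, between Atxn3 and Atn1, so these probes do not share 1 profile. With the other Atxn2 and Atxn3 probes these coefficients were 0.26 and 0.01. With Htt, the main probes of Atxn2 had 0.73, Atn1 0.70 and Atxn1 0.64, whereas Atxn3 and Atxn7 had −0.28 each. The other probes had 0.23 for Atxn2, 0.61 for Atxn1 and 0.21 for Atxn3, the last with the opposite sign to its main probe.

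Of 11317 other genes well above background on all arrays, those most like Atxn1 were Dlgap4 (r = 0.94), Nphp4 (0.93), Osbpl3 (0.92), Ptprj (0.91) and Spata2l (0.91), and 322 genes exceeded 0.8. For the other 4 genes between 5 and 13 genes exceeded 0.8. Only main probes were used for these likenesses. Those most like Atxn2 were Usp45, Eif4g3, Adar, Prr14l and Huwe1, with r from 0.83 to 0.85. Atxn3 was nearest to Cxadr, Klhl24, Ubap2l, Csnk1e and Oxct1 (0.80 to 0.85), Atxn7 to Golga4, Dhx36, Tpr, Pcm1 and Dicer1 (0.82 to 0.86), and Atn1 to Cbfa2t3, Camta2, Prdm8, Fam168b and Prmt8 (0.82 to 0.83).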

How the data were processed

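Total RNA of 61 brain fractions of 6 mice was measured, each on 1 single-color Agilent whole mouse genome array. The authors deposited spot intensities from Agilent Feature Extraction 9.1.3.1, background-subtracted and not normalized between arrays, and a table of linear intensities of 36558 probes normalized per array in GeneSpring GX. The design number in the files differs from that in the methods, and the probe names of the files were used. Here, log2 of the processed intensity was averaged over the spots of each of 41174 non-control probes without outlier flags, and the 75th percentile of each array was subtracted. The 75th percentile of the signal was 160 to 832 times the negative controls, and the number of arrays limits the precision. Names came from RefSeq identifiers for 22944 probes. The labels number the S fractions from 2, and they were renumbered from 1 as in the paper.

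limma 3.58.1 in R 4.3.3 (lmFit, eBayes) was fitted to the 28 pairs over 36573 probes detected on at least 1 array, with 28 residual and 1.88 prior degrees of freedom, and Benjamini-Hochberg adjustment over all of them at 0.05. The model was run on simulated data with independent noise for each array, which lacks the correlation between pairs given below and so cannot speak to it. The study chose the pairs from correlations of the same arrays, and a p-value measures the spread between both mice of a pair. Fractions of 1 mouse share the animal, which pairs them: the differences within pairs correlated between the pairs of a plane with a median r of 0.23, 0.34 and 0.11 in the sagittal, coronal and horizontal series. The mouse block removes only the mean offset between both mice of a plane. With it, fractions of 1 brain act as replicates, each contrast still rests on 2 mice, and the p-value does not measure the spread between animals. Area comparisons used exact sign-flip permutation tests over 6 mice with Python 3.11.15 and scipy 1.17.1. Alternatives were other scalings, background corrections, probe filters, probes, pairings, blocks and caudal limits, and leaving out each array or mouse, and for areas another marker cutoff and reference. Leaving out the 2 most anterior coronal pairs and the values within each mouse were added after seeing the data.

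The 5 genes and the gene lists were chosen with earlier results of these data known. Named are the 5 genes with all probes, further polyglutamine genes, up to 3 genes of each further list with the largest caudal minus rostral difference among those called, the 5 genes of highest r for each member, and the markers. Cic was named beside the rule for its role. Genes of the lists that the names of the array did not match were not analysed here. Some genes of the lists are not reported here. Protein and probe sequences were not used here.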

Additional observations from a re-analysis of the deposited data

Results flagged for a closer look

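Of 50 sets of values, namely the levels of the 5 genes in the 4 series of up to 10 fractions and their differences at 6 markers in 6 mice, 6 held a value far from the others by Dixon's test, which flags about 1 set in 20 by chance. Atxn2 was low in H6, at 2.17 (log2 level), against a next lowest of 2.37 in mouse H. Atxn3 was high in S1, at −0.53, the one S fraction scanned with the So series. At Spink8, mouse S was lowest for Atxn2 (−0.12) and Atxn3 (−0.24) and mouse C for Atn1 (−0.19), where 3 of the 6 mice have a difference of 0 because Spink8 and Myl4 peaked in the same fraction. At Ppp1r1b, mouse C was highest for Atxn7 (0.87), and its Myl4 fraction, C11, holds the lowest Atxn7 level of the series.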

How the results depend on the processing

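The caudal minus rostral difference of Atxn1 kept its sign and passed the test under every alternative run, while the differences near 0 and the calls of Atxn3 and Atxn7 depended on settings, and the cause was not tested. Differences are in log2. The fits that left out 1 array had no mouse block, so the offset between both mice of a plane enters their values. For Atxn2 the caudal minus rostral difference was 0.44 with the other probe and 0.036 with normexp correction and quantile normalization, and −0.10 to 0.041 leaving out 1 array. Its medial minus lateral difference was −0.065 with scaling to the array median, −0.066 in the authors' normalized table and −0.016 to 0.10 leaving out 1 array. For Atxn3 the caudal minus rostral difference did not pass with the coronal pairs alone (−0.26), with pairs 1 to 3 as caudal (−0.19) or without the 2 most anterior pairs (−0.16), and it ran from −0.32 to −0.19 leaving out 1 array. Its ventral minus dorsal difference was 0.067 with slide as a random block, and its medial minus lateral one −0.084 to 0.0089 leaving out 1 array. For Atxn7 the caudal minus rostral difference passed with the mouse as replicate block (0.36), with scan day as a block (0.42) and without the 2 most anterior pairs (0.40), and ran from 0.27 to 0.46 leaving out 1 array. For Atn1 it was −0.086 with scaling to the array median, −0.088 in the authors' table, −0.030 without the 2 most anterior pairs and −0.021 to 0.085 leaving out 1 array.

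Of the 5 genes, 5 varied over the pairs with the mouse as replicate block and 5 with scan day (81% and 81.2% of all detected probes), 0 in the sagittal pairs alone (6.54%) and 0 in the horizontal pairs alone (12.6%). The number lower caudally was 1 with the coronal pairs alone (18.9% of all detected probes), with pairs 1 to 3 (18.1%) or without the 2 most anterior pairs (20.9%). It was 1 to 2 leaving out 1 array, beside a share of 20.6% with all arrays. The number higher caudally was 1 with the mouse (38.4% of all detected probes) or scan day (39.1%) as a block and without those pairs (32.2%). It was 0 to 1 leaving out 1 array, beside 31.2% with all arrays. With either block 1 was lower ventrally (11.3% of all detected probes with the mouse, 12.5% with scan day) and 2 were lower medially (15.6% and 16.4%), and with scan day 1 was higher medially (17.4%). Scaling to the median (15.4%), the authors' table (15.5%) and slide as a random block (12.3%) gave 1 lower medially. Leaving out 1 array gave 0 to 1, beside 9.09% with all arrays. At the markers, the mean of the mouse as reference gave 0.13 for Atxn1 at Ppp1r1b, 0.31 at Spink8 and 0.037 for Atn1 at Pcp2, the other probe gave 0.13 for Atxn2 at Pcp2, and Atxn3 at Slc6a3 was −0.076 to 0.041 leaving out 1 mouse. No marker comparison passed under any alternative (lowest adjusted p = 0.104, exact permutation test).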
